A study of Homo sapiens with 8 samples.

Results

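Chromatin accessibility was measured around 9 genes of the phosphoinositide 3-kinase (PI3K), AKT and FOXO pathway: PIK3CD, PIK3R1, INPP5D, AKT1, FOXO1, FOXO3, TXNIP, BCL6 and CITED2. A peak belonged to a gene when its summit lay in the gene body (GENCODE, GRCh37) or within 50 kb of one of the gene's start sites. By that rule 221 of 126449 peaks were assigned, and they merged into 70 of 43654 accessible regions. All 9 genes had at least 1 region. The rule used positions only, not the response to treatment.

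Binding of stem cell factor (SCF) to the Kit receptor recruits PI3K, which turns a membrane lipid into the docking site of the kinase AKT. Active AKT phosphorylates FOXO transcription factors and keeps them out of the nucleus, so FOXO target genes are expressed mainly when growth factor signalling is low. In erythroid cells FOXO3 is known for its part in maturation and in the defence against oxidative stress, and Kit signalling for survival and expansion of precursors.

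The assay was ATAC-seq, in which the transposase Tn5 inserts sequencing adapters into open DNA, on 50000 cells of HUDEP-2, an immortalized human erythroid progenitor line. All cells compared here carried the control guide (sgControl), and the study's methods describe guides for interference as delivered by lentivirus with a KRAB-dCas9 repressor. After 5 h of starvation, cells received PBS, the vehicle, or 50 ng/mL SCF for 1 h. There were 2 libraries per treatment, which the methods call biological duplicates, and the 4 sgEGR1 samples were not analysed here. The line is cultured with doxycycline, which maintains its immortalizing genes, and it is a model of erythroid precursors, not primary tissue. Start-site regions of 10 of 12 erythroid markers, GATA1, KLF1 and KIT among them, held a peak in all 4 libraries. That of ALAS2 held a peak in PBS replicate 2 alone, and the fetal globin gene HBG1, which has the near-identical copy HBG2, had none. Among 7 markers of other cell types, 3 had a peak in every library (CD14, CSF1R and COL1A1), and CD3E, CD79A, MPO and ALB had none. A peak marks open DNA, not expression.

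The lists held between 29269 and 33616 peaks. With the depth of the first PBS library set to 1.00, that of the second PBS library was 1.42 and those of the first and second SCF libraries were 0.883 and 0.843, as recovered from the lists. Each peak carries a fold enrichment, the pileup of fragments at its summit over the local background. Since fold enrichment depends in part on the depth of its own library, peaks were compared by percentile rank within their list, where 100 is the strongest. The part of depth left in the ranks was not tested. Counts of pathway regions are read against the same counts over all regions.

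The 8 windows of 201 bp, each centred on a summit, that follow carry the main results: 4 of the 5 regions that met a rule of change, the strongest distal regions of INPP5D, FOXO3 and FOXO1, and the start of TXNIP, a FOXO target. They were read from GRCh37, the build named as hg19 in the lists, in the plus strand direction. Capitals mark, on either strand, the letters TGANTCA for AP-1, AGATAA or TGATAA for GATA and GTAAACA or ATAAACA for FOXO. Among the strongest distal regions not shown, those of TXNIP, PIK3R1 and CITED2 held GATA letters alone. Those of AKT1 and BCL6 held none of these letters.
PIK3CD, past the gene end, chr1:9828231-9828431: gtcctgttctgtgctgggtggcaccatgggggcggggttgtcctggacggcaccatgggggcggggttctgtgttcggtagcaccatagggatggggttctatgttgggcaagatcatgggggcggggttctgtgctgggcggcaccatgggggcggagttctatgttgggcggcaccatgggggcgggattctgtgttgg
AKT1, upstream, chr14:105293872-105294072: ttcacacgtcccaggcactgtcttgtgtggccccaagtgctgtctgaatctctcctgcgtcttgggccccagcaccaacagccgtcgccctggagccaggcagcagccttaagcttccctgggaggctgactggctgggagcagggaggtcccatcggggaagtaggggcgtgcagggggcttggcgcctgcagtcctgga
FOXO3, intron, chr6:108899838-108900038: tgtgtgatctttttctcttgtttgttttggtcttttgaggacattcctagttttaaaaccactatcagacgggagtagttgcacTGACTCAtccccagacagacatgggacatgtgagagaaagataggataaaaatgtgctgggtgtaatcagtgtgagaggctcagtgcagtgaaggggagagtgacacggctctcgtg
FOXO1, far upstream, chr13:41255584-41255784: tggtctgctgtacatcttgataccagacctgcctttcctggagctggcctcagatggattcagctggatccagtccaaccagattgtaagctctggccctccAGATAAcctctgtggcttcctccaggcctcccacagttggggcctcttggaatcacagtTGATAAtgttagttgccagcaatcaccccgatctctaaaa
INPP5D, intron, chr2:233956418-233956618: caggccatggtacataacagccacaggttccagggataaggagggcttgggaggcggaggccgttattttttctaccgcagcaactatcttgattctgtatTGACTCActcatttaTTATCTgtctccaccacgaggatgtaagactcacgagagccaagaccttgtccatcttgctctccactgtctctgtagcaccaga
FOXO3, strongest intronic region, chr6:108919486-108919686: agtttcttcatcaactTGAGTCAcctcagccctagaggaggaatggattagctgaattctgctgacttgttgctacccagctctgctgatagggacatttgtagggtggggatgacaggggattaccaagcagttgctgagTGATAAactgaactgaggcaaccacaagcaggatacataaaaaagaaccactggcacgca
FOXO1, near upstream, chr13:41246615-41246815: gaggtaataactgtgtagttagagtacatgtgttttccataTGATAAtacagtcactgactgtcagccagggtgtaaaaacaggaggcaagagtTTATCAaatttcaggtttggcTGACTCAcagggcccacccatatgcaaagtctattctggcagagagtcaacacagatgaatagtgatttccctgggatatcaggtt
TXNIP, promoter, chr1:145438220-145438420: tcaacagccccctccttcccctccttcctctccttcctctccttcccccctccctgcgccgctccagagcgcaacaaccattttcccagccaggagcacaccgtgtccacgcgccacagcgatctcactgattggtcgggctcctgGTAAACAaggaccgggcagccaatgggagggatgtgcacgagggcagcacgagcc

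Of the 70 pathway regions, 42 (60.0%) were called in all 4 libraries, against 51.3% of all regions. Another 8 were called in 3 libraries, 6 in 2 and 14 in 1. Of these 14, 9 came from the deepest library, PBS replicate 2, and 3 from the other PBS library, while the SCF libraries gave 0 (replicate 1) and 2 (replicate 2). Over all regions the calls in a single library numbered 2061 and 3780 in PBS and 1815 and 3915 in SCF, so that the most came from SCF replicate 2. By position, 18 regions were own promoters, with a summit no more than 1 kb from a start site of their gene, 7 were promoters of another protein-coding gene, and 45 were distal. Gene bodies held 32 of the 70 summits.

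The number of pathway peaks was lower on average in SCF, and the test did not pass. PBS replicates 1 and 2 had 54 and 63 peaks, and SCF replicates 1 and 2 had 50 and 54. The means were 58.5 ± 6.36 in PBS and 52.0 ± 2.83 in SCF (SD, n = 2), a difference of -6.50 (two-sided exact permutation p = 0.667). The smallest p that 2 against 2 libraries allow is 0.333. The higher of the SCF counts equalled the lower of the PBS counts. As a share of the list, pathway peaks made up 0.179% and 0.187% in PBS and 0.171% and 0.162% in SCF, and these shares did not overlap. With lists of equal size, with a −log10 q of at least 5 and with a 15 kb window the SCF counts were both below the PBS counts, with differences of means of -4.00, -5.50 and -6.50 peaks, each at the smallest p the design allows (exact permutation p = 0.333).

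Few pathway regions met a rule of change. Calls in the pair of SCF libraries alone were made at 0 of the 70, against 1.65% of all regions. Calls in the pair of PBS libraries alone were made at 1 (1.43%), against 2.37% of all regions. A rank gain required that every SCF rank exceed every PBS rank by 10 points or more, and it was met by 3 of the 42 regions called in every library (7.14%), near AKT1, INPP5D and FOXO3. The same rule was met by 2.55% of all regions called in every library. The reverse, a rank loss, was met by 1 region near PIK3CD (2.38%), against 3.04% of all. Without the 10-point margin, both SCF ranks exceeded both PBS ranks at 7 regions (16.7%, against 16.0%) and fell below them at 6 (14.3%, against 19.3%). With so few regions the share of gains rests on 3 sites, each described below.

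All 4 regions with a gain or loss were distal. Among distal regions called in every library, 3 of 25 near the pathway genes gained rank, against 4.22% of all such regions, and 1 of 25 lost rank, against 4.09%. The median SCF minus PBS rank difference of the 42 regions was 0.114 points, with 21 regions higher and 21 lower, beside -0.527 over all 22398 regions called in every library. For pathway promoters, own and other, the median was -0.832 over 17 regions, and for all promoter regions it was -0.782.

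In limma's moderated test on log2 fold enrichment over all 22398 regions, 0 regions passed an adjusted p of 0.05 (0% of all), and so 0 of the 42 pathway regions did. At an unadjusted p of 0.05 the test picked 5 of the 42, 4 higher and 1 lower in SCF, beside 6.78% of all regions. These 5 were the 3 with rank gain, the 1 with rank loss and a further FOXO3 intron region. None of the differences given below therefore passes correction for the number of regions tested.

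**Figure D1:**
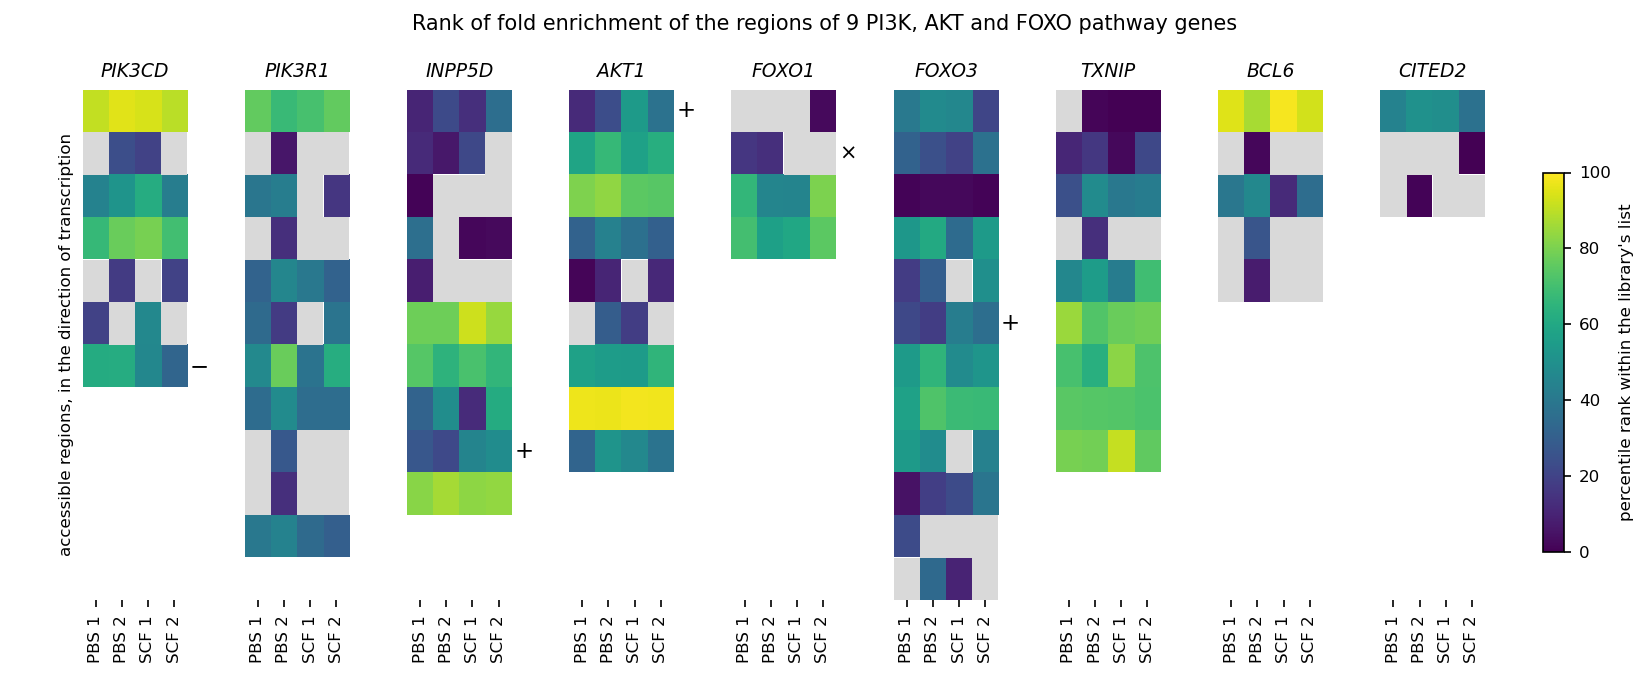
Percentile rank of fold enrichment of all 70 regions (rows, in the direction of transcription of their gene) in the 4 libraries (columns), with gray where no peak was called. The marks +, − and × stand for rank gain, rank loss and a call in both PBS libraries alone, and most rows show like colours across the 4 columns.

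**Figure D2:**
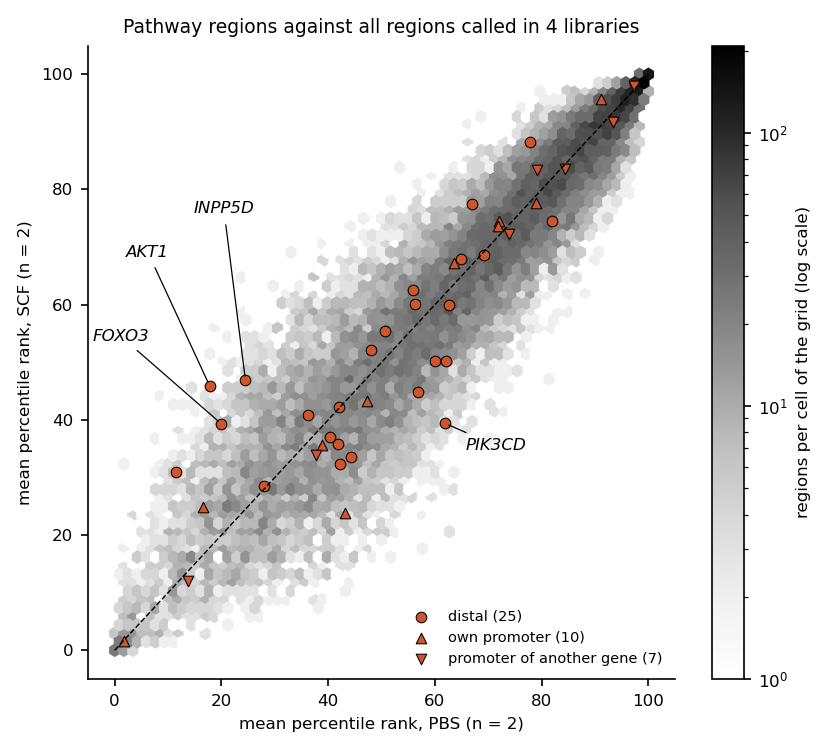
Mean rank in SCF against mean rank in PBS (n = 2 each) for the 42 pathway regions called in every library (symbols by class) over the density of all 22398 such regions (gray, log scale), with the line of equality dashed. Of the labelled distal regions, those of AKT1, INPP5D and FOXO3 lie above the line and that of PIK3CD lies below it.

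The kinase itself came first. PIK3CD encodes p110 delta, the PI3K catalytic subunit enriched in blood cells, and PIK3R1 encodes the p85 alpha regulatory subunit that binds phosphorylated receptors. Of 7 PIK3CD regions, 4 were called in every library. The leading promoter region, chr1:9749147-9749818, covers 3 internal start sites of the gene and ranked 66.8 and 77.2 in PBS and 79.5 and 69.6 in SCF. These ranks overlapped between treatments.

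Loss of rank was found at chr1:9828120-9828691, which ranked 61.7 and 62.1 in PBS and 46.2 and 32.6 in SCF. Both SCF ranks were below both PBS ranks, by 15.4 points at the nearest. The region lies 39.2 kb past the end of PIK3CD in an intron of CLSTN1, a neuronal calsyntenin gene, 16.7 kb from the nearest protein-coding start site, so its assignment to PIK3CD is by distance alone. Mean rank went from 61.9 ± 0.332 in PBS to 39.4 ± 9.64 in SCF (SD, n = 2). Fold enrichment was 8.58 and 8.15 in PBS and 6.91 and 5.30 in SCF, with 18, 22, 13 and 9 fragments at the summit. Divided by relative depth these pileups were 18.0 and 15.5 in PBS and 14.7 and 10.7 in SCF, a narrower separation at the nearest. In limma the log2 ratio of SCF to PBS was -0.47 (SE 0.18, adjusted p = 0.705). The loss was not met with a −log10 q of at least 5 or with a gap of 20 points. Its window, the first of those shown, is a run of near-identical GC-rich repeats in which none of the 6 motifs searched was found.

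PIK3R1 had 11 regions, 5 of them called in every library, and 5 of the 11 lay at its own start sites. Its leading promoter, chr5:67510804-67512615, ranked 75.9 and 67.8 in PBS and 71.0 and 76.1 in SCF. The strongest distal region, chr5:67599334-67600057, is 2.04 kb past the gene end and had ranks of 47.2 and 77.0 in PBS and 38.2 and 62.4 in SCF. The spread within each treatment there exceeded the difference between the means. All 4 regions called in a single library belonged to PBS replicate 2. Over the 5 regions called in every library, 4 had a lower mean rank in SCF and 1 a higher one, from -11.8 to 1.74 points, and none met a rule of change. Peak numbers at PIK3R1 were 7 and 11 in PBS and 5 and 7 in SCF (exact permutation p = 0.667), the largest difference of means among the 9 genes.

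INPP5D encodes SHIP1, the lipid phosphatase of blood cells that removes the phosphate added by PI3K and so opposes AKT. Of its 10 regions, 6 were called in every library. The gene's main promoter, chr2:233924530-233925684, covers 3 start sites and ranked low, at 10.5 and 22.6 in PBS and 13.5 and 36.2 in SCF. Both treatments overlapped there.

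The strongest distal region of INPP5D lay in an intron 31.8 kb into the gene, at chr2:233955962-233957202. Its ranks were 77.8 and 77.9 in PBS and 92.2 and 84.4 in SCF, so the groups did not overlap, but the gap of 6.49 points was under the 10 that a gain requires. Fragments at the summit numbered 66 and 78 in PBS and 82 and 73 in SCF. In limma the log2 ratio was 0.27 (SE 0.15, adjusted p = 0.805). The window holds TGACTCA 1 to 7 bp after the summit and TTATCT, the reverse complement of AGATAA, 16 to 21 bp after it.

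A rank gain was found past the end of INPP5D. The region ranked 27.0 and 22.0 in PBS and 45.1 and 48.6 in SCF, with a gap of 18.1 points between the groups. It lies 14.0 kb past the gene end, in an intron of ATG16L1, a gene of autophagosome formation, and 11.9 kb from the nearest protein-coding start site. Mean rank was 24.5 ± 3.48 in PBS and 46.9 ± 2.50 in SCF (SD, n = 2), and fold enrichment was 5.18 and 4.49 against 6.78 and 6.65. Summit pileups were 14 and 17 in PBS and 20 and 22 in SCF. Divided by relative depth these were 14.0, 12.0, 22.7 and 26.1. Pileup and depth were recovered from the fold enrichments and p-values of the same peaks, so these values are no separate support for the gain. The log2 ratio was 0.47 (SE 0.15, limma adjusted p = 0.705). The gain was also met when peaks were ranked by −log10 p, but not when peaks were joined by summits within 150 bp or with a gap of 20 points.

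**Figure D3:**
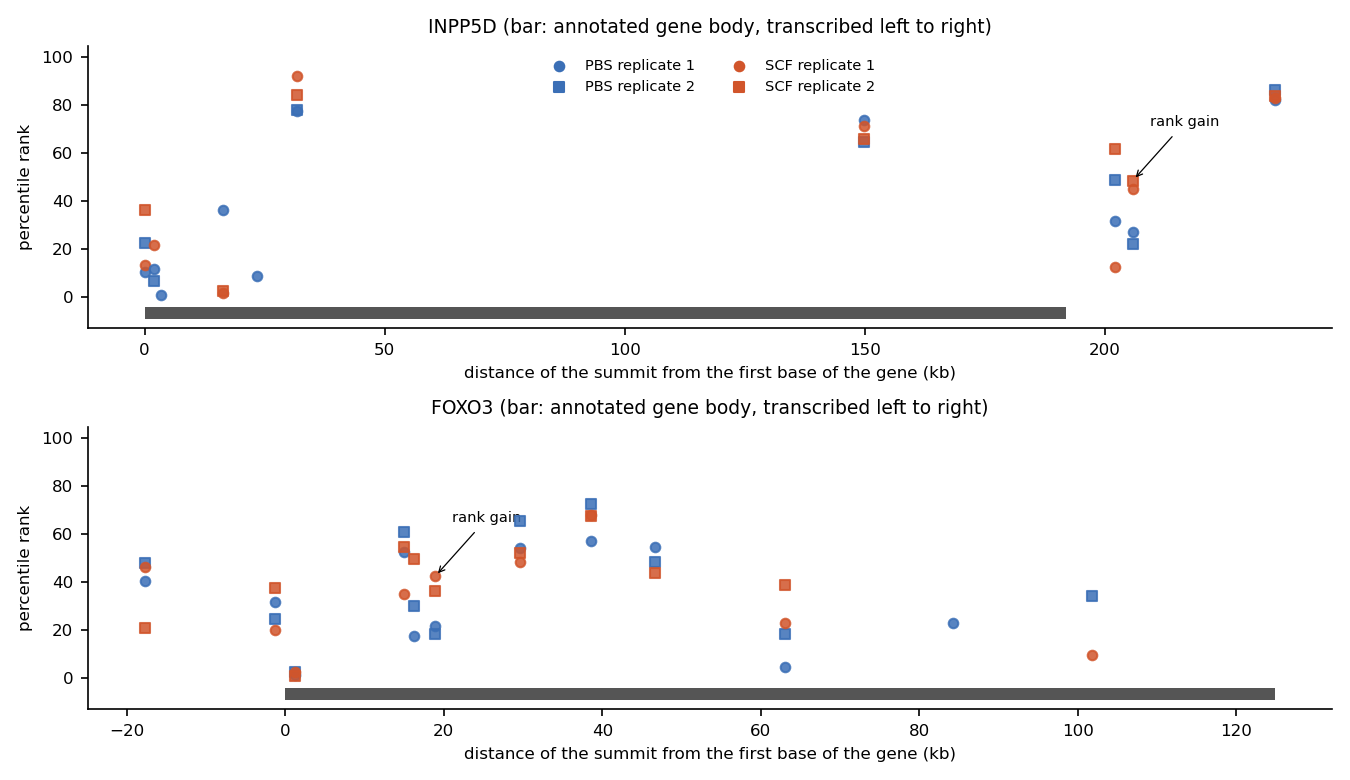
Percentile rank of each peak along INPP5D and FOXO3 against the distance of the region's summit from the first base of the gene, by library (colour for treatment, symbol for replicate), with the gene body as a bar. At the arrows the 2 SCF points lie above the 2 PBS points by more than 10 points, and at most other positions the colours are mixed.

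AKT1 encodes the kinase at the centre of the pathway. Of 9 regions, 7 were called in every library, and 2 of these were promoters of the neighbouring genes SIVA1 and ZBTB42. The first AKT1 promoter, chr14:105260579-105262075, covers 4 start sites and ranked 1.20 and 10.5 in PBS, 11.7 in SCF replicate 2, with no peak in SCF replicate 1. An internal promoter, chr14:105252611-105253129, had a peak in PBS replicate 2 (29.6) and SCF replicate 1 (18.2) alone. Neither pattern separates the treatments.

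The strongest distal region of AKT1 was 20.3 kb upstream, at chr14:105281724-105282926, with ranks of 80.8 and 83.3 in PBS and 74.9 and 74.0 in SCF. The groups did not overlap, with a gap of 5.86 points, under the margin for a loss (log2 ratio -0.17, SE 0.14, limma adjusted p = 0.883). A gain was found further upstream, at chr14:105293562-105294321, 31.9 kb before the gene and 26.5 kb from the start of ZBTB42. It ranked 11.8 and 23.8 in PBS and 54.3 and 37.6 in SCF, the largest difference of means among the 42 regions (28.1 points, from 17.8 ± 8.48 to 45.9 ± 11.8, SD, n = 2). Fold enrichment was 4.15 and 4.66 in PBS and 7.78 and 5.71 in SCF. The summit pileups, 17, 27, 28 and 16 fragments, did not separate the treatments, and divided by relative depth they were 17.0, 19.0, 31.7 and 19.0, so that SCF replicate 2 equalled PBS replicate 2. The log2 ratio was 0.59 (SE 0.19, limma adjusted p = 0.705). The gain was not met when peaks were ranked by −log10 p, with a −log10 q of at least 5, with summits joined within 150 bp or with a gap of 20 points. The window, with a GC content of 65.2%, held none of the 6 motifs.

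FOXO1 and FOXO3 encode the transcription factors that AKT restrains. FOXO1 had 4 regions, at its promoter and upstream, and no summit fell in the 111 kb gene body. The promoter, chr13:41240402-41241627, ranked 70.1 and 56.8 in PBS and 59.6 and 74.8 in SCF. A region 5.94 kb upstream, chr13:41246399-41246958, ranked 66.1 and 45.6 in PBS and 45.0 and 80.3 in SCF. At both sites the replicates of a treatment differed by more than the treatments did. The upstream window holds TGACTCA and 2 GATA matches.

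FOXO1 also had the sole region with peaks in the PBS libraries alone, chr13:41255562-41255943, 14.9 kb upstream. It was weak, with ranks of 15.7 and 13.6 and summit pileups of 8 and 9 fragments. Both SCF libraries were shallower than both PBS libraries, and the call was lost when each list was cut to the same number of peaks and when a −log10 q of at least 5 was required. The part of depth in it was not tested. Its window holds 2 GATA matches and no AP-1 match.

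FOXO3 had the most regions of the 9 genes, 12, of which 8 were called in every library and 10 lay in the gene body. It was the sole one of the 9 genes whose peak numbers did not overlap between treatments, with 11 and 11 in PBS and 9 and 10 in SCF (exact permutation p = 0.333, the smallest possible). The share of all genes with such counts was not computed, and both SCF libraries were shallower than both PBS libraries. In SCF replicate 1 alone, 2 FOXO3 regions lacked a peak, and they ranked 49.8 and 43.9 in SCF replicate 2. The region over the first start site, chr6:108879231-108881172, had its highest summit 1.30 kb upstream and ranked 31.6 and 24.5 in PBS and 19.9 and 37.4 in SCF. The region at an internal start site, chr6:108881593-108882391, ranked between 0.819 and 2.34 in the 4 libraries although 71 to 130 fragments lay over its summit. Ranked by −log10 p instead of fold enrichment, it stood between 52.3 and 64.0. A low rank by fold enrichment went here with many fragments over a high local background.

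An intron of FOXO3 held the third rank gain, at chr6:108899706-108900235, 18.9 kb into the gene. Its ranks were 21.8 and 18.2 in PBS and 42.4 and 36.3 in SCF, with a gap of 14.5 points. The difference of the means was 19.3 points, with SDs of 2.59 in PBS and 4.32 in SCF (n = 2). Fold enrichment was 4.88 and 4.33 in PBS against 6.58 and 5.57 in SCF. Pileups of 30, 41, 39 and 34 fragments overlapped. Divided by relative depth they were 30.0 and 28.9 in PBS and 44.2 and 40.3 in SCF, values that are likewise no separate support. The log2 ratio was 0.38 (SE 0.16, limma adjusted p = 0.732). The gain was not met with lists of equal size, with a −log10 q of at least 5, when peaks were ranked by −log10 p or with a gap of 20 points. The window holds TGACTCA from 16 to 10 bp before the summit.

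A further FOXO3 intron region, chr6:108943894-108944638, 63.1 kb into the gene, ranked 4.70 and 18.4 in PBS and 23.0 and 38.8 in SCF, with a gap of 4.64 points. It was named here after its values were seen, since it was the fifth region at an unadjusted p below 0.05 (log2 ratio 0.44, SE 0.17, limma adjusted p = 0.707), and its window also holds TGACTCA. The strongest intronic region, chr6:108919363-108919988, ranked 57.1 and 72.6 in PBS and 68.1 and 67.7 in SCF. Its groups overlapped although it holds TGAGTCA. FOXO3 regions moved both ways, 4 with a higher and 4 with a lower mean rank in SCF, from -12.0 to 19.4 points.

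**Figure D4:**
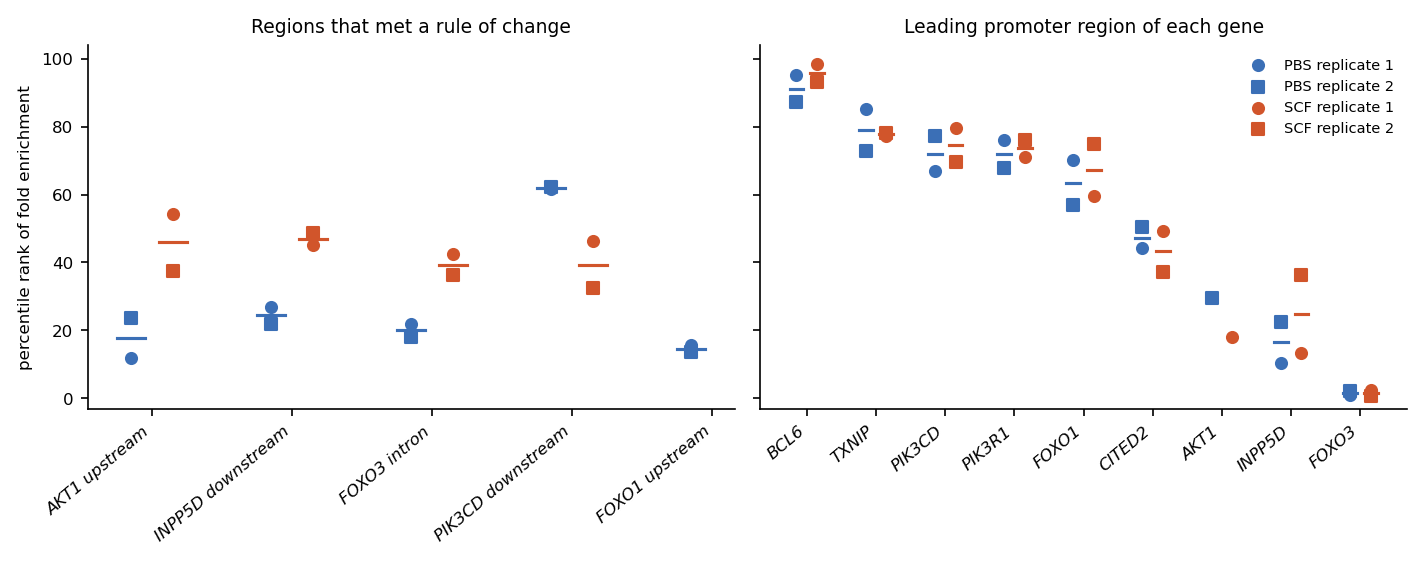
Percentile rank of fold enrichment in each library (points) and mean of each treatment where both replicates had a peak (bars), for the 5 regions that met a rule of change (left) and the leading promoter region of each gene (right). Promoter regions have a summit within 1 kb of a start site, which leaves out the FOXO3 region over the first start site. The SCF points stand above the PBS points at the AKT1, INPP5D and FOXO3 regions and below them at the PIK3CD region, and they overlap at 8 promoters, while AKT1 has 1 point per treatment.

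The 3 remaining genes are targets or partners of FOXO factors in other cells. TXNIP encodes an inhibitor of thioredoxin that also limits glucose uptake, BCL6 a transcriptional repressor, and CITED2 a coactivator-binding regulator needed in blood stem cells. TXNIP had 9 regions, 7 called in every library, but 3 of the 9 were promoters of HJV, POLR3GL and LIX1L. The TXNIP promoter, chr1:145437735-145438900, ranked 85.1 and 72.8 in PBS and 77.2 and 78.2 in SCF. The groups overlapped, and the window holds GTAAACA 46 to 52 bp after the summit.

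The strongest distal region of TXNIP, chr1:145455049-145456003, lies 12.8 kb past the gene end. It ranked 70.8 and 63.2 in PBS and 82.7 and 72.2 in SCF, so both SCF ranks were higher, by 1.35 points at the nearest. The log2 ratio was 0.26 (SE 0.18, limma adjusted p = 0.845). No TXNIP region met a rule of change.

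The BCL6 promoter, chr3:187462857-187463760, had the highest ranks among the leading promoters, 95.2 and 87.1 in PBS and 98.5 and 93.0 in SCF. A second promoter region of BCL6, chr3:187456300-187457099, in an intron, ranked 39.5 and 46.8 in PBS and 12.1 and 35.7 in SCF, with a gap of 3.85 points (log2 ratio -0.38, SE 0.17, limma adjusted p = 0.737). The 3 distal BCL6 regions had peaks in PBS replicate 2 alone, the strongest at a rank of 26.5. The CITED2 promoter, chr6:139695216-139697070, ranked 44.2 and 50.5 in PBS and 49.4 and 37.2 in SCF. Its other regions were a second promoter region with a peak in SCF replicate 2 alone, at a rank of 0.087, and a distal region with a peak in PBS replicate 2 alone, at a rank of 1.06.

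Ordered by mean rank over the libraries, the leading promoters ran from BCL6 (93.5 ± 4.80, SD, n = 4) through TXNIP (78.3 ± 5.09), PIK3CD (73.3 ± 6.04), PIK3R1 (72.7 ± 4.03), FOXO1 (65.3 ± 8.53) and CITED2 (45.3 ± 6.07) to AKT1 (23.9 ± 8.06, n = 2), INPP5D (20.7 ± 11.5) and FOXO3 (1.65 ± 0.792). Neighbours from TXNIP to FOXO1 overlapped in range, as did AKT1 and INPP5D, whereas BCL6, CITED2 and FOXO3 did not overlap the promoters next to them. Of all promoter regions called in every library, 4.45% had a lower mean rank than that of INPP5D and 0.321% a lower one than that of FOXO3. The place of FOXO3 rests on the 1 kb rule. Its region over the first start site, chr6:108879231-108881172, had its summit 1.30 kb upstream, was therefore classed as distal, and averaged a rank of 28.3. This order is one of fold enrichment over local background and changes with the measure: by −log10 p, CITED2 averaged 83.0 and the FOXO3 promoter 57.7.

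In the 201 bp windows, AP-1 letters were found in 8 of 70 pathway regions (11.4%, against 8.43% of all 43573 regions on the assembled chromosomes) and GATA letters in 20 (28.6%, against 25.4%). FOXO letters were found in 9 (12.9%, against 5.41%), and 3 of the 9 belonged to TXNIP and 3 to PIK3R1. One region each held EGR letters, GCGTGGG (1.43%, against 3.80%), and STAT letters, TTCNNNGAA (1.43%, against 5.09%), and 0 held TGACGTCA, the cAMP response element (against 0.682%). A STAT match starts 94 bp before the summit of a TXNIP upstream region. The GATA and FOXO letters AGATAA and ATAAACA can share bases, as they do at an internal PIK3R1 start site. These are matches of letters in a window, not evidence that a factor was bound.

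Pathway regions with AP-1 letters stood mostly on the SCF side. Of the 7 such regions called in every library, all distal, 6 had a higher mean rank in SCF, at INPP5D, FOXO3 and FOXO1 (from 3.02 to 22.4 points), and 1 a lower one, at PIK3R1 (-9.88). Their median was 10.4 points, beside -1.62 for the 18 distal pathway regions without the letters. Over all distal regions called in every library the medians were 4.26 for 1202 with AP-1 letters and -0.403 for 9312 without. The share of these 1202 with a higher mean rank in SCF was not computed, so the count of 6 of 7 has no background beside it. Some of the 7 had also been named above for their rise in rank. The 11 distal pathway regions with GATA letters had a median of -3.41, beside 0.945 for all distal regions with them, and the 5 pathway regions with FOXO letters had 4 lower and 1 higher mean ranks in SCF, with a median of -1.71 beside -0.380 for all 914 regions with them. The split by motif was made after the ranks were known and is given as a description.

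**Figure D5:**
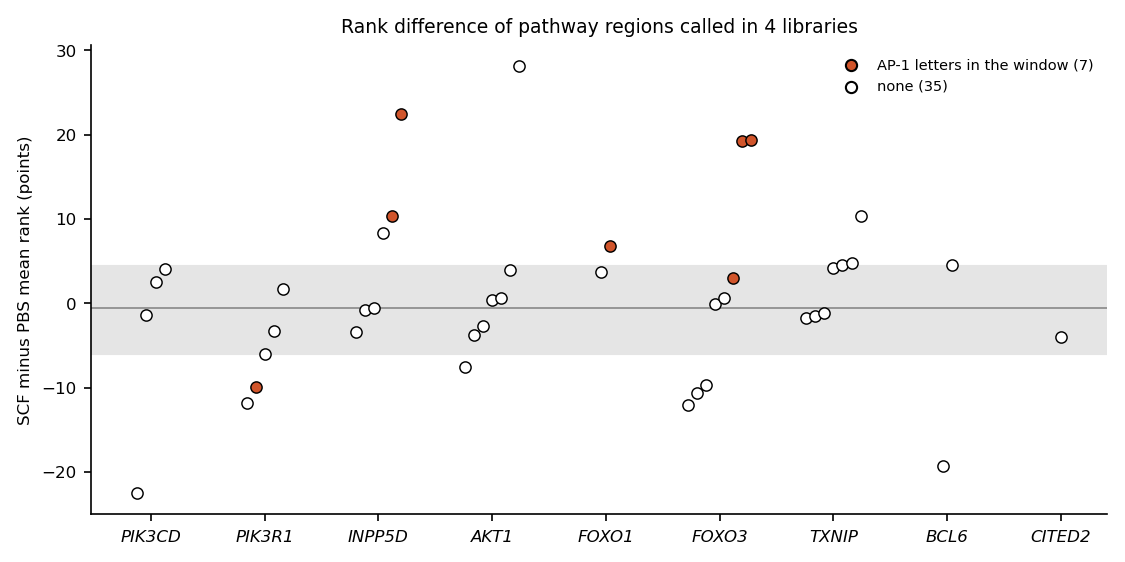
SCF minus PBS difference of mean rank for the 42 pathway regions called in every library, by gene, with regions whose window holds AP-1 letters filled. The gray line and band are the median and the quartiles of all 22398 regions, from -5.97 to 4.45 points, and 5 of the 7 filled points lie above the band.

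Other genes of the pathway were given the same rule. Around 39 further PI3K and AKT pathway genes, 253 regions were found at 38 of them (none at INPP4B), 150 of them called in every library. Rank gain was met by 2 of the 150 (1.33%) and rank loss by 5 (3.33%), while 7 of the 253 (2.77%) were called in the SCF libraries alone and 6 (2.37%) in the PBS libraries alone. The median rank difference was -0.612 points. The gains were near PHLPP2, a phosphatase that inactivates AKT (13.6 and 1.24 in PBS, 26.3 and 46.8 in SCF), and near TSC1, in an intron of GFI1B, an erythroid repressor gene (14.4 and 15.5, then 30.3 and 26.4). Of the 5 losses, that at the main promoter of MAPKAP1, a subunit of the mTORC2 complex that phosphorylates AKT, ran from 88.7 and 81.0 to 68.4 and 68.9. A loss at an SGK3 start site was larger, from 61.0 and 55.7 to 13.4 and 30.1. The others were a distal region near MAPKAP1, the GPR137 promoter near BAD and a PHOX2A exon near INPPL1.

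Around 18 further FOXO targets, 89 regions were found and 52 were called in every library. Gain was met by 1 (1.92%), at the promoter of FBXO32, a ubiquitin ligase subunit, with ranks of 52.5 and 41.0 in PBS and 66.6 and 68.2 in SCF. A region at another FBXO32 start site went the other way, with peaks in the PBS libraries alone (40.5 and 60.4). Loss was met by 2 (3.85%). One of them lies in CDKN1B, which encodes the cell cycle inhibitor p27 and is a long-known FOXO target (47.2 and 38.0, then 24.5 and 7.92). The other lies within 50 kb of DDIT4, an inhibitor of mTORC1 (41.2 and 34.7, then 4.87 and 13.9). No region was called in the SCF libraries alone, 2 (2.25%) were called in the PBS libraries alone, and the median rank difference was 0.769 points. Over all regions called in every library the shares were 2.55% for gains and 3.04% for losses. Over all regions they were 1.65% for calls in the SCF libraries alone and 2.37% for calls in the PBS libraries alone. With gains at 2 and 1 regions and losses at 5 and 2 in the lists, no difference from these shares is read.

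The 50 kb limit cut between neighbouring peaks at some genes. At PIK3R1 the outermost member, 49841 bp from a start site, ranked 40.1 and 44.4 in PBS and 34.4 and 30.3 in SCF, and the first region beyond, at 50768 bp, ranked 35.2 and 52.7 in PBS and 54.2 and 43.4 in SCF. At AKT1 the first region outside, at 50229 bp, ranked 69.5 and 67.9 in PBS and 52.8 and 60.6 in SCF. The gains near AKT1 and INPP5D and the loss near PIK3CD all lie between 15 and 50 kb from a start site of the gene, and with a limit of 15 kb a gain was left at FOXO3 alone, with 0 losses.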

How the data were processed

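ATAC-seq peak lists of 4 HUDEP-2 sgControl libraries (2 PBS, 2 SCF) were analysed, grouped by the sample labels. Peak names inside the 2 PBS lists carry other replicate numbers than the labels. The study ran the ENCODE ATAC-seq pipeline, and its processing notes name bcl2fastq, Bowtie2 and SAMtools. Caller settings are not given in the sources used here. The notes and methods name hg38, whereas the first line of each list names hg19, which was used. On the 25 of 47 chromosome names found in GRCh37, no peak ended past the chromosome. The authors called each list on its own library, with a q-value of at most 0.0497. The deposited lists hold per peak a fold enrichment (ratio of summit pileup to local background), used for ranks and tests. The −log10 p-value and −log10 q-value deposited by the authors served the alternatives and the recovery of pileups. The authors' whole-number score was not used.

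Pileup was the whole fragment number that gives the deposited fold enrichment and −log10 p under a Poisson distribution (tolerance 0.0001, 100% of peaks with −log10 p under 300 in each library). The same step gave the local background of each peak. Relative depth was the lowest such background in a library divided by the width of its shortest peak, scaled to the first PBS library. It is a stand-in for depth, not a read count. Read totals are unknown, so no interval is given. Peaks sharing at least 1 bp were merged, and the highest-ranked peak of a library stood for the region. Gene models were those of GENCODE 44 in its GRCh37 version. The log2 of the deposited ratios, without a pseudocount, was quantile-normalized over regions called in every library and tested with limma 3.58.1 (R 4.3.3) with Benjamini-Hochberg adjustment, after a test on simulated data. The study's MAnorm comparison needs reads and was not repeated. Scripts used Python 3.11.15, scipy 1.17.1 and pandas 2.3.3.

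For each gene the text names the highest-ranked own-promoter region, the highest-ranked distal region and every region that met a rule of change. The sequence of the TXNIP promoter, a second promoter region of BCL6, the first AKT1 promoter and 2 further FOXO3 regions (over its first start site and 63.1 kb into the gene) were added after their values were seen. The members, gene lists, motifs and rules were chosen with earlier results of these data known. Alternatives were equal list sizes, a −log10 q of at least 5, other ranks, gaps, merging and windows, a replicate block, and leaving out each library. One marker and 1 window sequence are not reported here.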

Additional observations from a re-analysis of the deposited data

How the results depend on the processing

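Merging summits within 150 bp gave 3 pathway regions called in the SCF libraries alone, 3 in the PBS libraries alone, both of 83 (against 2.31% and 2.69% of all regions), and 1 rank gain of 33 (against 2.47%). Equal list sizes gave 2 rank losses of 41 (against 2.93%). A −log10 q of at least 5 gave 1 rank gain of 38 (against 2.46%), and ranking by −log10 p gave 1 of 42 (against 1.65%). The 15 kb window gave 1 rank gain and 0 losses of 26 (against 2.55% and 3.04%) and a median rank difference of 2.15 points (-0.527 over all regions). A gap of 5 points gave 3 losses of 42 (against 7.73%). A gap of 20 points gave 0 gains and 0 losses of 42 (against 0.397% and 0.545%). A narrower window or wider gap admits fewer regions by construction. For the other settings the cause was not tested.

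A rule over 3 libraries is easier to meet, and the shares over all regions rose, to between 5.94% and 11.2% for gains, 7.19% and 14.4% for losses, 3.11% and 11.1% for calls in SCF alone and 4.61% and 11.6% for calls in PBS alone. Without PBS replicate 1 there were 3 gains, 5 losses, 1 region called in SCF alone and 10 in PBS alone, against 6.44%, 10.8%, 3.11% and 11.6% of all regions. Gains and losses were counted there among 43 pathway regions and the calls among 67. Without PBS replicate 2 these counts were 6, 2, 1 and 4 (of 43 and 62), against 10.4%, 7.19%, 4.96% and 7.86% of all regions. Without SCF replicate 1 they were 9, 3, 2 and 2 (of 47 and 70), against 11.2%, 8.26%, 11.1% and 4.61%. Without SCF replicate 2 they were 7, 4, 0 and 6 (of 43 and 68), against 5.94%, 14.4%, 6.43% and 6.97%. The 3 gains, the loss and the FOXO1 call met their rules in each of these 4 settings, as a region that meets a rule with 4 libraries must, so this is no sign of stability. With a −log10 q of at least 5 the INPP5D gain held, and the AKT1 and FOXO3 gains, the PIK3CD loss and the FOXO1 call did not.

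The median rank difference ran from -1.15 to 1.05 points without 1 library and moved by less than 1.83 points, its SD over the 4 library pairs, in every setting but the 15 kb window, with values on both sides of 0. The difference in peak number ran from -11.0 to -2.00 without 1 library and was below 0 in every setting run. The limma count was 0 in every setting (without 1 library, the lone library was assumed to vary like the other group), with 2 to 5 pathway regions at an unadjusted p of 0.05. With the replicate block it was also 0, with 5 at an unadjusted p. Differences between replicates correlated at 0.0239 between treatments over 22398 regions, so the ranks showed no effect shared by replicate number as labelled. This cannot tell whether the libraries were prepared in pairs. The part of depth in which peaks were called was not tested. The library of lowest relative depth, SCF replicate 2 (0.843), had 33324 peaks, the second most.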
